A study of Saccharomyces cerevisiae with 12 samples.

Results

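Yeast cells with a mutant allele of a lid subunit of the proteasome were set beside yeast cells with a mutant allele of a core-particle subunit. The comparison holds 7 of the 12 RNA libraries of the series: rpn5-ts replicates 2 to 4 and pup2-ts replicates 1 to 4, with protein-coding genes as the features. The library labelled rpn5-ts replicate 1 was left out for its counts of LYS2 and MET17. The libraries were thus selected on the measured values of those 2 genes, and they are described here without a test. All strains are MATa his3Δ1 leu2Δ0 met15Δ0 ura3Δ0 by their labels. The mutants are also labelled lys2Δ0 can1Δ::LEU2-MFA1pr::His3, with pup2-ts::URA3 in the core-particle mutant and rpn5-ts::URA3 in the lid mutant. Both therefore share every marker by label and differ in the temperature-sensitive (ts) allele. WT carries none of the lys2, can1 and ts alleles, and its 4 libraries are used only as a reference level. Cells grew in YPD, the usual rich medium with glucose, to an optical density of about 0.5. The labels give no treatment, and no growth temperature is given in the sources used here, so whether the cells were at a temperature that inactivates the ts proteins is not known. Polyadenylated RNA was sequenced, and the series describes the replicates as biological.

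The proteasome is the cell's main machine for degrading proteins tagged with ubiquitin. Its core particle is a barrel of stacked rings: outer rings of alpha subunits, Pup2 among them, form the gate, and inner rings of beta subunits hold the proteolytic sites. The regulatory particle caps the barrel. Its base contains the ATPases that unfold substrates and thread them into the barrel, and its lid, Rpn5 among its subunits, holds the enzyme that cuts ubiquitin off. In budding yeast the transcription factor Rpn4 raises the genes of all these subunits together through a promoter motif called PACE, and Rpn4 is itself degraded by the proteasome, so that cells short of proteasome activity make more proteasome mRNA.

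The results turn on a few kinds of gene, whose promoters are shown for the motif each carries in capitals: the PACE motif GGTGGCAAA for proteasome genes and the motif TGACTC of Gcn4 for amino acid synthesis. An Hsf1 motif, alternating TTC and GAA units with 2 bases between them, is shown for a chaperone gene. Each window is the 300 bases before the transcript start in the deposited table, read from the R64 genome (sacCer3) 5′ to 3′ along the gene. Motifs were searched on both strands. PUP2 lies at chrVII:998301-999187 on the minus strand, and its window is chrVII:999188-999487. RPN5 lies at chrIV:190873-192407 on the plus strand, and its window is chrIV:190573-190872. The windows of HSP78 (chrIV:974317-974616) and HIS4 (chrIII:68394-68693) are on the minus strand.
PUP2: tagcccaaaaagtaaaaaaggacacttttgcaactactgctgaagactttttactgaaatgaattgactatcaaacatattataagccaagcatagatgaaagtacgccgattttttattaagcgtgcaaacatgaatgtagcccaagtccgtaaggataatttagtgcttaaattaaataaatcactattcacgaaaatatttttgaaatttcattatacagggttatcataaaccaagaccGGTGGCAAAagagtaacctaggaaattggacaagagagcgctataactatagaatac
RPN5: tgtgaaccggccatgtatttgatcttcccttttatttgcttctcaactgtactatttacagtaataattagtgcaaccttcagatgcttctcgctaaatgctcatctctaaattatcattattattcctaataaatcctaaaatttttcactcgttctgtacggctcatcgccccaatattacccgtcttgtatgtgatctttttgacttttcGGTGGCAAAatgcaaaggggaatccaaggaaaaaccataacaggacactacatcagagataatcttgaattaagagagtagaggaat
HSP78: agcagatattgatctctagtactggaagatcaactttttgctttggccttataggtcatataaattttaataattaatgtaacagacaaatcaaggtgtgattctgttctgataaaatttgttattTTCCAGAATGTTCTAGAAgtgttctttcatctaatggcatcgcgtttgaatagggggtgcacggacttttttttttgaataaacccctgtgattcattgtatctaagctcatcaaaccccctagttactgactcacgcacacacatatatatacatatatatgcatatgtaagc
HIS4: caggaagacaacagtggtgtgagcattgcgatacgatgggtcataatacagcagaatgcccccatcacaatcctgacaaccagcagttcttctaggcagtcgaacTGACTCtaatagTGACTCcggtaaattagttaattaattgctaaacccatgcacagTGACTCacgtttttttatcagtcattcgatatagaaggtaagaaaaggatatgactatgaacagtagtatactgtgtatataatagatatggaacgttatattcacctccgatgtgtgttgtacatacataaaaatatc
The PUP2 and RPN5 windows hold 1 PACE each, 49 and 79 bases before the transcript start. HIS4 holds 3 copies of the Gcn4 motif, and HSP78 holds 2 overlapping matches to the Hsf1 motif. PACE was found in 1.4% of all 5585 windows, and in 6 of 7 alpha-ring, 6 of 7 beta-ring, 8 of 10 base and 7 of 9 lid genes. The Gcn4 motif was in 8.4% of all windows, in 10 of 12 arginine genes and in 5 of 6 histidine genes. The Hsf1 motif was in 1.1% of all windows and in 13 of 23 chaperone genes. A match of letters is not a measured binding site.

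The rpn5-ts libraries were the shallower ones. Gene counts, in units of 1000000, ranged from 22.7 to 30.4 in pup2-ts and from 18.5 to 22.7 in rpn5-ts. The libraries fell into 2 sets that the labels' groups do not describe: replicates 3 and 4 carry the word DNAse in their names and replicates 1 and 2 do not, although all RNA was DNAse treated by label. The share of gene counts in the top 10 genes was 7.2% to 7.9% without the word and 12.6% to 13.1% with it. The form of the name was therefore a factor in every test, and the only rpn5-ts library without the word is replicate 2. STE2, the alpha-factor receptor of MATa cells, was at 238 to 509 CPM, counts per 1000000 gene counts, and MF(ALPHA)1, which encodes alpha-factor, at 0.373 to 2.7 CPM. Of 4 markers of the other mating type, MATalpha, 3 were nevertheless called higher in rpn5-ts, against 15.4% of all genes tested. They were MF(ALPHA)1, MF(ALPHA)2 and STE3, from levels of at most 17.8 CPM. Without the form of the name in the model, or with the library labelled rpn5-ts replicate 1 added, 0 MATalpha and 0 MATa markers were called. In the main test BAR1 and STE6, of 5 MATa markers, were called higher. The other MATa markers had values below 0 and were not called, with MFA1 at -0.57 (adjusted p = 0.052), STE2 at -0.42 (adjusted p = 0.21) and MFA2 at -0.31 (adjusted p = 0.12), and the median of the 5 was -0.31. The part of these low levels in the other results was not tested. LYS2 was at most 0.209 CPM in all 7 libraries. MET17, called met15 in the labels and given there as deleted in every strain, was at 196, 205, 587 and 566 CPM in pup2-ts replicates 1 to 4 and at most 0.0906 CPM in rpn5-ts. Met17 is the enzyme that fixes sulfide into homocysteine. The library labelled rpn5-ts replicate 1 held MET17 at 249 CPM, so the separation of the groups in this gene was set by the choice of libraries and nothing is read from it. Among the 7 libraries, effects of the ts allele and of the MET17 level cannot be told apart in any comparison that follows.

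The mutants differed in many genes, mostly by little. Of 5551 genes tested, 1807 (32.6%) passed an adjusted p of 0.05 in edgeR's quasi-likelihood test, 857 (15.4%) higher in rpn5-ts and 950 (17.1%) lower. Differences are given throughout as log2 of rpn5-ts over pup2-ts with their standard error (SE), and levels as CPM. The median size of a called difference was 0.29 on the log2 scale, and 84.2% of the called genes differed by less than 1.5-fold. Tested against a fold of 1.5, 64 genes (1.15%) passed, 44 of them (0.793%) higher and 20 (0.360%) lower in rpn5-ts. Higher genes made up 47.4% of the calls, but 69.3% with upper-quartile scaling and 27.1% with all annotated features in the table, so the balance of higher to lower genes depends on the scaling. A fit with the replicate block called 1099 genes, and 43 beyond 1.5-fold. Without the form of the name in the model 47 were called, with the WT libraries in the same model 627, without rpn5-ts replicate 3 1045, and without pup2-ts replicate 3 1108. The count of genes beyond 1.5-fold was 41 without pup2-ts replicate 1, 42 without rpn5-ts replicate 3 and 108 without rpn5-ts replicate 2.

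**Figure D1:**
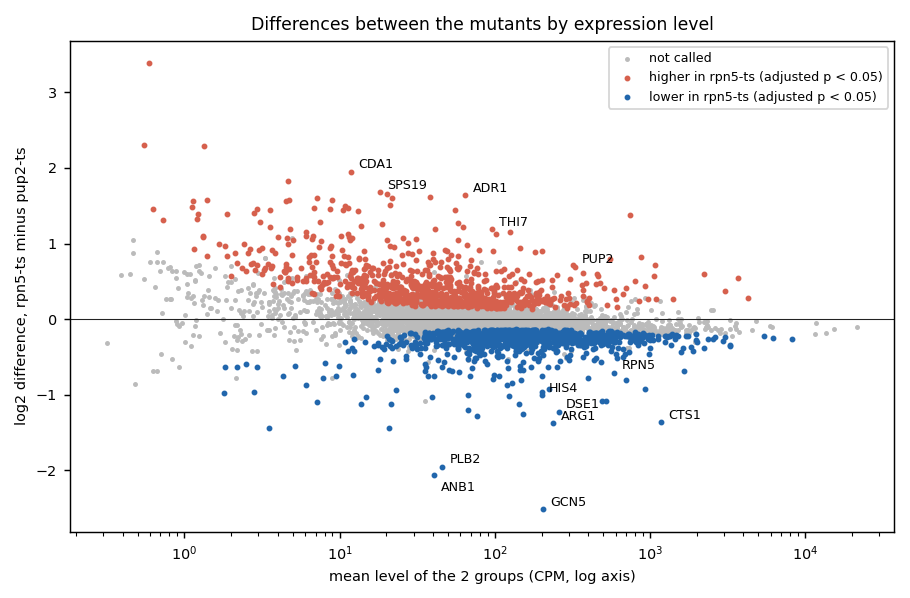
Log2 difference (rpn5-ts minus pup2-ts, vertical axis) of each tested gene except MET17 against its mean level in the mutants (CPM, log axis); red points were called higher and blue points lower in rpn5-ts at an adjusted p under 0.05. Most called genes lie close to 0, and a few, such as GCN5 at -2.52 and CDA1 at 1.95, lie far out.

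The mutated genes themselves stood apart from their own complexes. Transcript of PUP2 was higher in the lid mutant and transcript of RPN5 was higher in the core-particle mutant. PUP2 measured 220, 260, 260 and 264 CPM in pup2-ts replicates 1 to 4 and 450, 390 and 368 CPM in rpn5-ts replicates 2 to 4. All rpn5-ts libraries lay above all pup2-ts libraries, with a log2 difference of 0.69 (SE 0.087) and an adjusted p of 6.7e-04. RPN5 measured 821, 817, 681 and 651 CPM in pup2-ts and 514, 403 and 400 CPM in rpn5-ts. Here the groups were separated in the other direction, with a log2 difference of -0.71 (SE 0.053, adjusted p = 3.2e-05). Neither call was made without the form of the name in the model, which left the values at 0.68 and -0.76. Neither the allele's sequence nor protein amounts can be read from such counts.

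Set beside WT in a fit of 11 libraries, each mutated gene was raised less in its own mutant. PUP2 stood 0.37 (SE 0.089) above WT on the log2 scale in pup2-ts and 1.06 (SE 0.10) above it in rpn5-ts. RPN5 stood 0.42 (SE 0.087) above WT in rpn5-ts and 1.11 (SE 0.081) above it in pup2-ts. The other 13 core-particle genes were 0.88 to 1.61 above WT in pup2-ts, and the other 8 lid genes were 0.66 to 1.22 above WT in rpn5-ts. Both mutants are compared with the same WT libraries, so these values are given side by side only.

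**Figure D2:**
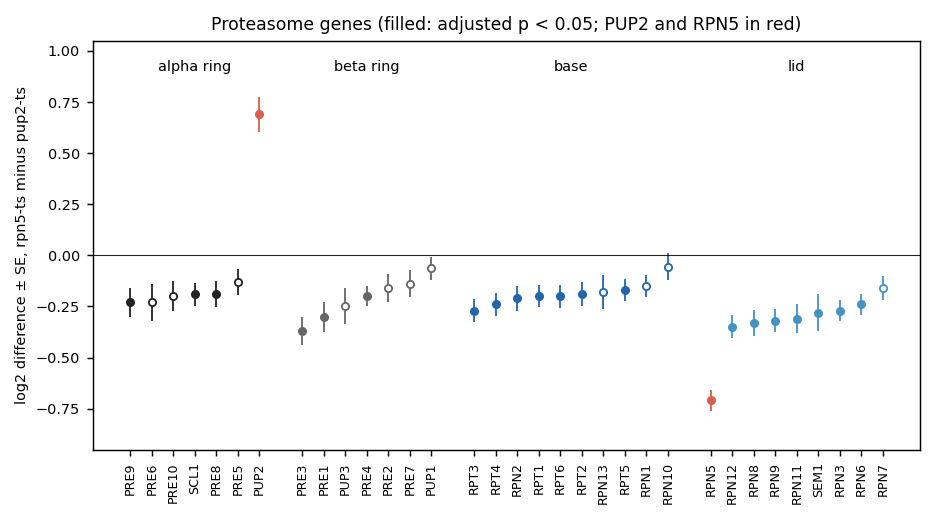
Log2 difference between the mutants (rpn5-ts minus pup2-ts, vertical axis, points with SE bars) for the 33 genes of the alpha ring, beta ring, base and lid; filled points passed an adjusted p of 0.05. PUP2 at 0.69 and RPN5 at -0.71, in red, lie outside the range of the other 31 genes, which runs from -0.37 to -0.055.

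The rest of the proteasome was slightly lower in the lid mutant. Leaving out PUP2, all 13 other core-particle genes had negative values, from -0.37 to -0.064, and 6 of them were called lower. Of 19 regulatory-particle genes 15 were called lower and 0 higher, against 17.1% of all genes called lower. The median was -0.19 for the core particle and -0.24 for the regulatory particle, against -0.009 for all genes tested. Among the proteolytic subunits, PRE3, of the caspase-like site, went from 371, 400, 437 and 467 CPM in pup2-ts to 331, 334 and 315 CPM in rpn5-ts. Its difference was -0.37 (SE 0.068, adjusted p = 0.0034), while PRE2 of the chymotrypsin-like site at -0.16 (adjusted p = 0.10) and PUP1 of the trypsin-like site at -0.064 (adjusted p = 0.42) were not called. RPT3, an ATPase of the base, differed by -0.27 (SE 0.054, adjusted p = 0.0050).

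Among the lid genes, 8 of 9 were called lower, with a median of -0.31. After RPN5 itself, RPN12 was the most different, at 325, 347, 322 and 310 CPM in pup2-ts and 282, 240 and 232 CPM in rpn5-ts. All rpn5-ts values lay below all pup2-ts values, with a difference of -0.35 (SE 0.056, adjusted p = 0.0017). RPN8, a scaffold of the deubiquitinating pair, differed by -0.33 (SE 0.064, adjusted p = 0.0046), and RPN11, the deubiquitinating enzyme, by -0.31 (SE 0.071, adjusted p = 0.0098). RPN7 was not called, at -0.16 (adjusted p = 0.058).

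These small differences depended on the libraries. In replicates 1 and 2 alone the medians were 0.0046 for the core particle and -0.10 for the regulatory particle, and in replicates 3 and 4 alone -0.27 and -0.28. Called core-particle genes fell from 7, 1 higher and 6 lower, to 2 without rpn5-ts replicate 3 or 4, 1 higher and 1 lower. They numbered 3 without pup2-ts replicate 3 or 4, 1 higher and 2 lower. They reached 11 without pup2-ts replicate 1 and 13 without rpn5-ts replicate 2, 10 and 12 of them lower. Called regulatory-particle genes numbered 8 without rpn5-ts replicate 3, 7 without rpn5-ts replicate 4, and 9 without pup2-ts replicate 3 or 4. With the replicate block 4 core-particle genes, 3 of them lower, and 9 regulatory-particle genes were called. Upper-quartile scaling gave 3 core-particle genes, 2 of them lower, and 9 regulatory-particle genes. Without the form factor the counts were 0 and 0.

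RPN4 mRNA showed no called difference, at 153, 158, 91.8 and 87.9 CPM in pup2-ts and 148, 95.5 and 99.1 CPM in rpn5-ts. Its levels followed the form of the name, and its difference was 0.041 (SE 0.054, adjusted p = 0.58). Of the 7 genes listed as regulators of proteasome genes, RPN4 among them, 3 were called lower and 0 higher. Over all genes 17.1% were called lower and 15.4% higher, and so short a list holds few calls at these shares. They were MUB1, which with Ubr2 targets Rpn4 for degradation, at -0.39 (SE 0.050, adjusted p = 6.7e-04), the stress factor YAP1 at -0.24 (SE 0.067, adjusted p = 0.022) and the drug-response factor PDR3 at -0.20 (SE 0.058, adjusted p = 0.026). With the replicate block or with upper-quartile scaling 1 of the 7 was called, and without the form factor 0.

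Assembly and accessory factors went both ways, with 3 of 16 called higher and 4 lower, shares near the 15.4% and 17.1% of all genes, and a median of -0.060 that was 2.3e-04 with upper-quartile scaling. SPG5, which binds the proteasome in stationary phase, measured 80.6, 83.2, 59.5 and 57.9 CPM in pup2-ts and 164, 103 and 106 CPM in rpn5-ts. It was the only list member beyond 1.5-fold, at 0.90 (SE 0.051, adjusted p = 6.3e-06). The regulatory-particle chaperone TMA17 was also higher, at 0.34 (SE 0.068, adjusted p = 0.0053), and the core-particle chaperone PBA1 was lower, at -0.33 (SE 0.062, adjusted p = 0.0039). Without rpn5-ts replicate 3 or 4, 4 members were called in place of 7. Of 25 genes of the ubiquitin pathway and Cdc48, 0 were called higher and 5 lower, a share near the 17.1% of all genes called lower. Among the 5 were the ubiquitin-activating enzyme UBA1 (-0.25, SE 0.066, adjusted p = 0.019) and the substrate shuttle RAD23 (-0.26, SE 0.049, adjusted p = 0.0045). That count was 13 without rpn5-ts replicate 2, and 3 without pup2-ts replicate 3, rpn5-ts replicate 3 or rpn5-ts replicate 4.

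Among genes that reached 10 CPM in a group, and leaving aside MET17, the gene next to PUP2 differed most. GCN5 (YGR252W, chrVII:996797-998387, plus strand), the acetyltransferase of the SAGA complex, measured 425, 484, 197 and 302 CPM in pup2-ts and 56.4, 53.9 and 53.5 CPM in rpn5-ts. The WT libraries, at 56.1 to 62.3 CPM, lay with the lid mutant, and only the pup2-ts libraries stood apart. The difference was -2.52 (SE 0.24, adjusted p = 0.0011). In the deposited table the GCN5 interval ends inside the PUP2 interval, with 87 bases shared on opposite strands. Counting was stranded by its values, since units annotated within a gene had 2.2% of its read density when on the opposite strand and 115.2% when on the same strand. The labels place URA3 at the pup2-ts allele, and whether that insertion moves with the GCN5 reads was not tested. Of 32 neighbours of the 8 loci that carry alleles or markers, 7 were called, 3 higher and 4 lower, a smaller share than the 32.6% of all genes tested. AVT2, a putative vacuolar amino acid transporter beside CAN1, was the most different of the higher ones, from 19.5, 17.8, 12.7 and 13.6 CPM in pup2-ts to 40.1, 21.0 and 26.4 CPM in rpn5-ts, a difference of 0.96 (SE 0.10, adjusted p = 2.2e-04).

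Chaperone genes were higher in the lid mutant. Hsf1 is the heat-shock factor that drives cytosolic chaperone genes when misfolded proteins accumulate. Of 23 chaperone genes of this type 22 were called higher and 0 lower, against 15.4% of all genes called higher, with a median of 0.54 against -0.009. All 23 had every rpn5-ts library above every pup2-ts library within both forms of the name, as had 22.7% of all genes tested. CPR6, a co-chaperone of Hsp90, measured 329, 313, 483 and 451 CPM in pup2-ts and 606, 768 and 758 CPM in rpn5-ts. Even the lowest rpn5-ts library exceeded the highest pup2-ts library, with a difference of 0.79 (SE 0.062, adjusted p = 4.4e-05). CUR1, which sorts misfolded proteins to the nucleus, measured 21.6, 20.5, 22.7 and 24.5 CPM in pup2-ts and 40.7, 42.2 and 43.9 CPM in rpn5-ts. All rpn5-ts libraries lay far above all pup2-ts libraries, with a difference of 0.90 (SE 0.062, adjusted p = 2.4e-05).

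HSP78, a mitochondrial disaggregase whose promoter is shown above, measured 81.8, 84.1, 129 and 122 CPM in pup2-ts and 125, 209 and 195 CPM in rpn5-ts. Its values overlapped across forms of the name but not within them, with a difference of 0.65 (SE 0.050, adjusted p = 4.4e-05). BTN2, a sorting factor related to CUR1, differed by 0.53 (SE 0.044, adjusted p = 6.5e-05). Transcript of HSF1 itself was not called, at -0.12 (SE 0.049, adjusted p = 0.089). The median of the list was 0.55 in replicates 1 and 2 and 0.51 in replicates 3 and 4. Against WT it was 0.69 in rpn5-ts and -0.063 in pup2-ts, but WT libraries spread widely for these genes, from 62.7 to 407 CPM for HSP78 and from 43.4 to 618 CPM for BTN2. Members called higher numbered 19 with the replicate block, 17 with the library labelled rpn5-ts replicate 1 added, and 4 with the WT libraries in the model or without the form factor. In the endoplasmic reticulum, 3 of 14 genes of the unfolded protein response were called higher, a share near the 15.4% of all genes, and 0 lower, and the list's median was 0.0022, which turned to -0.067 with all annotated features. KAR2, the chaperone of that compartment, was at 714, 661, 970 and 925 CPM in pup2-ts and 957, 1470 and 1469 CPM in rpn5-ts, a difference of 0.57 (SE 0.063, adjusted p = 2.9e-04). Without rpn5-ts replicate 2 the list had 3 members called higher and 2 lower.

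Genes of the general stress response were higher too. Msn2 and Msn4 induce these genes when growth is stressed or glucose runs low. Of 25 listed genes 18 were called higher and 0 lower, against 15.4% and 17.1% of all genes. Their median was 0.57, which was 0.40 in replicates 1 and 2 and 0.68 in replicates 3 and 4. The mitochondrial aldehyde dehydrogenase ALD4 measured 59.6, 77.8, 120 and 121 CPM in pup2-ts and 138, 232 and 215 CPM in rpn5-ts. Every rpn5-ts library exceeded every pup2-ts library, with a difference of 0.94 (SE 0.083, adjusted p = 1.1e-04). The glucokinase GLK1 differed by 0.53 (SE 0.067, adjusted p = 6.3e-04), although its level was several times higher in DNAse-named libraries of both mutants, 349 to 566 CPM against 85.6 to 123 CPM. Trehalose and glycogen, the storage carbohydrates of yeast, are made by genes of the same regulon, and 12 of 16 were called higher and 0 lower, with a median of 0.48. TSL1, a subunit of trehalose synthase, differed by 0.66 (SE 0.10, adjusted p = 0.0014), and the glycogen primer GLG2 by 0.63 (SE 0.080, adjusted p = 6.3e-04). With the WT libraries in the model 7 stress genes and 5 storage genes were called, and without the form factor 1 and 1. The library labelled rpn5-ts replicate 1, when added, left 11 stress genes called.

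**Figure D3:**
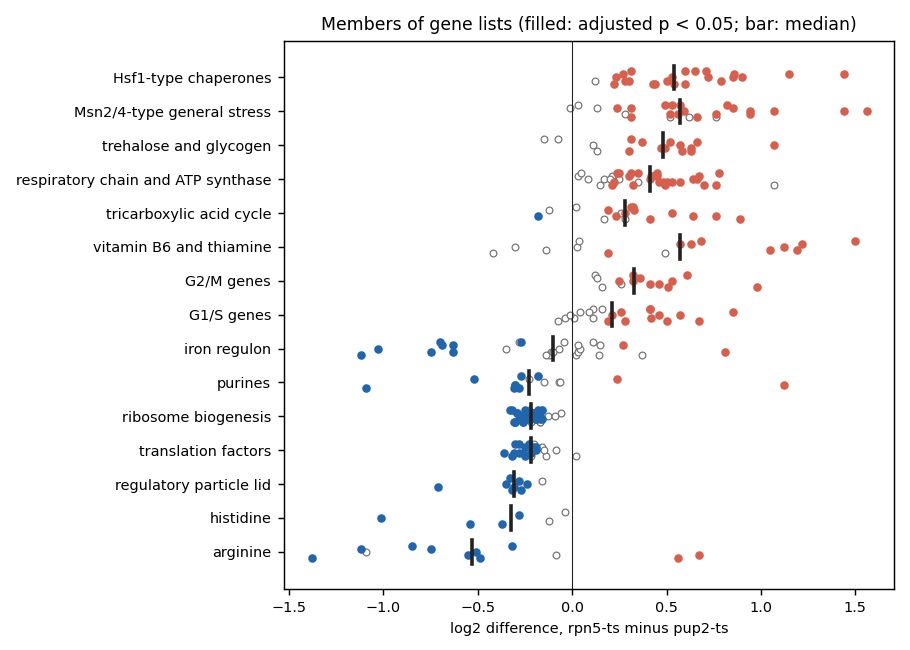
Log2 differences (rpn5-ts minus pup2-ts, horizontal axis) of the members of 15 gene lists, a point per gene; filled points passed an adjusted p of 0.05, red higher and blue lower in rpn5-ts, and black bars mark medians. The medians of chaperone, stress, storage and respiratory genes lie to the right of 0, at 0.54, 0.57, 0.48 and 0.41, and those of histidine and arginine genes to the left, at -0.33 and -0.53, with 2 arginine genes called higher.

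Respiration genes were higher in the lid mutant. These encode the electron transport chain and ATP synthase of mitochondria, which yeast represses on glucose. Of 35 genes 25 were called higher and 0 lower, against 15.4% and 17.1% of all genes. The median was 0.41, and all 35 values were above 0. QCR2, a subunit of the cytochrome bc complex, measured 59.3, 61.7, 92.7 and 91.0 CPM in pup2-ts and 91.4, 154 and 139 CPM in rpn5-ts. The groups separated within each form of the name, with a difference of 0.64 (SE 0.052, adjusted p = 5.6e-05). CYC1, cytochrome c, differed by 0.78 (SE 0.087, adjusted p = 3.3e-04) and COX4, a subunit of cytochrome oxidase, by 0.57 (SE 0.062, adjusted p = 2.7e-04). Against WT the median was 0.13 in rpn5-ts and -0.23 in pup2-ts. Called members numbered 17 with the WT libraries in the model, 9 with the library labelled rpn5-ts replicate 1 added and 1 without the form factor.

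The tricarboxylic acid cycle followed, with 11 of 17 genes called higher, 1 lower and a median of 0.28. Over all genes 15.4% were called higher and 17.1% lower. The subunits of succinate dehydrogenase SDH1 (0.76, SE 0.086, adjusted p = 3.7e-04) and SDH2 (0.53, SE 0.060, adjusted p = 3.4e-04) were among the higher genes. Of the genes of gluconeogenesis and the glyoxylate cycle 4 of 11 were called higher. ADR1, the activator of genes for growth without glucose, was among the largest differences of all, at 22.6, 29.6, 35.1 and 33.4 CPM in pup2-ts and 77.8, 109 and 111 CPM in rpn5-ts. The groups were far apart, with a difference of 1.64 (SE 0.082, adjusted p = 3.1e-06), and the WT libraries, at 72.1 to 123 CPM, lay with the lid mutant. CAT8, another activator of these genes, differed by 0.84 (SE 0.16, adjusted p = 0.0044).

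Few glycolysis genes were called, with 2 of 18 higher and 3 lower, against 15.4% and 17.1% of all genes. Of the 18 values 15 were below 0. Their median was -0.087, with -0.23 in replicates 1 and 2 and -0.031 in replicates 3 and 4. HXK2, the main hexokinase and a mediator of glucose repression, measured 1157, 1065, 2419 and 2326 CPM in pup2-ts and 839, 1686 and 1756 CPM in rpn5-ts. It was lower within both forms of the name, by -0.44 (SE 0.062, adjusted p = 0.0010). Its level followed the form of the name more than the mutant, and it was not called with the WT libraries in the model. Leaving out any library except rpn5-ts replicate 4 brought the 5 called glycolysis genes to 2 or 3, and the replicate block to 2. Of 14 hexose transporters and sensors 5 were called higher and 3 lower, and the high-affinity transporter HXT7, which has near-identical copies, differed by 0.90 (SE 0.17, adjusted p = 0.0049). With the replicate block 2 members of that list were called, and without any single library 3 to 5.

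Genes that make the translation machinery were slightly lower in the lid mutant. Of 39 genes of ribosome biogenesis 30 were called lower and 0 higher, against 17.1% of all genes called lower, and all 39 values were below 0, with a median of -0.22. MAK16, needed for the large ribosomal subunit, differed by -0.33 (SE 0.051, adjusted p = 0.0016), from 259, 286, 230 and 229 CPM in pup2-ts to 222, 179 and 182 CPM in rpn5-ts. The size was small, and lay outside the spread of the replicates within each form. Of 23 translation factors 16 were called lower and 0 higher, with a median of -0.22, PRT1 of the initiation factor eIF3 among them at -0.32 (SE 0.052, adjusted p = 0.0021). Of 138 cytosolic ribosomal protein genes 39 were called lower and 0 higher, with a median of -0.15. Of 69 mitochondrial ribosomal protein genes 5 were called higher and 1 lower, with a median of 0.082.

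The counts of the translation lists were not stable. With the replicate block 16 biogenesis genes, 5 translation factors and 8 ribosomal protein genes were called, and with upper-quartile scaling 19, 9 and 15. Without the form factor the counts were 0, 0 and 0, with the WT libraries in the model 7, 2 and 1, and with the library labelled rpn5-ts replicate 1 added 15, 0 and 1. For cytosolic ribosomal proteins DESeq2 called 64 genes and the fit with all annotated features 87. Without pup2-ts replicate 3 or rpn5-ts replicate 3 the biogenesis count was 18 and the factor count 9. The cytosolic ribosomal count ranged from 16 without rpn5-ts replicate 3 to 29, with 24, 19, 25 and 17 without pup2-ts replicates 3 and 4 and rpn5-ts replicates 2 and 4. No mitochondrial ribosomal gene was called without pup2-ts replicate 3 or rpn5-ts replicate 3, 2 and 3 were called without pup2-ts replicate 4 and rpn5-ts replicate 4, and 1 with the block. Many ribosomal protein genes are near-identical pairs that share reads to an unknown degree.

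CTS1, DSE1, DSE2 and SCW11, genes of daughter-cell separation, were lower in the lid mutant. After division, enzymes made in the daughter cell digest the septum between mother and daughter. CTS1, the chitinase of this set, measured 1789, 1599, 1707 and 1661 CPM in pup2-ts and 621, 661 and 695 CPM in rpn5-ts. Values were tight in both groups and far apart, with a difference of -1.37 (SE 0.069, adjusted p = 3.1e-06), and the WT libraries, at 1455 to 2229 CPM, lay near pup2-ts. DSE1, a daughter-specific gene, measured 440, 393, 326 and 307 CPM in pup2-ts and 175, 135 and 139 CPM in rpn5-ts. It differed by -1.23 (SE 0.058, adjusted p = 2.5e-06), with no overlap. The glucanases DSE2 (-1.09, SE 0.076, adjusted p = 2.4e-05) and SCW11 (-0.93, SE 0.067, adjusted p = 2.7e-05) were lower as well.

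These 4 genes passed beyond 1.5-fold. Against WT CTS1 was at -1.58 (SE 0.13) in rpn5-ts and -0.19 (SE 0.12) in pup2-ts. With the library labelled rpn5-ts replicate 1 added, DSE1 (-0.92) and DSE2 (-0.79) were no longer called and CTS1 and SCW11 were.

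**Figure D4:**
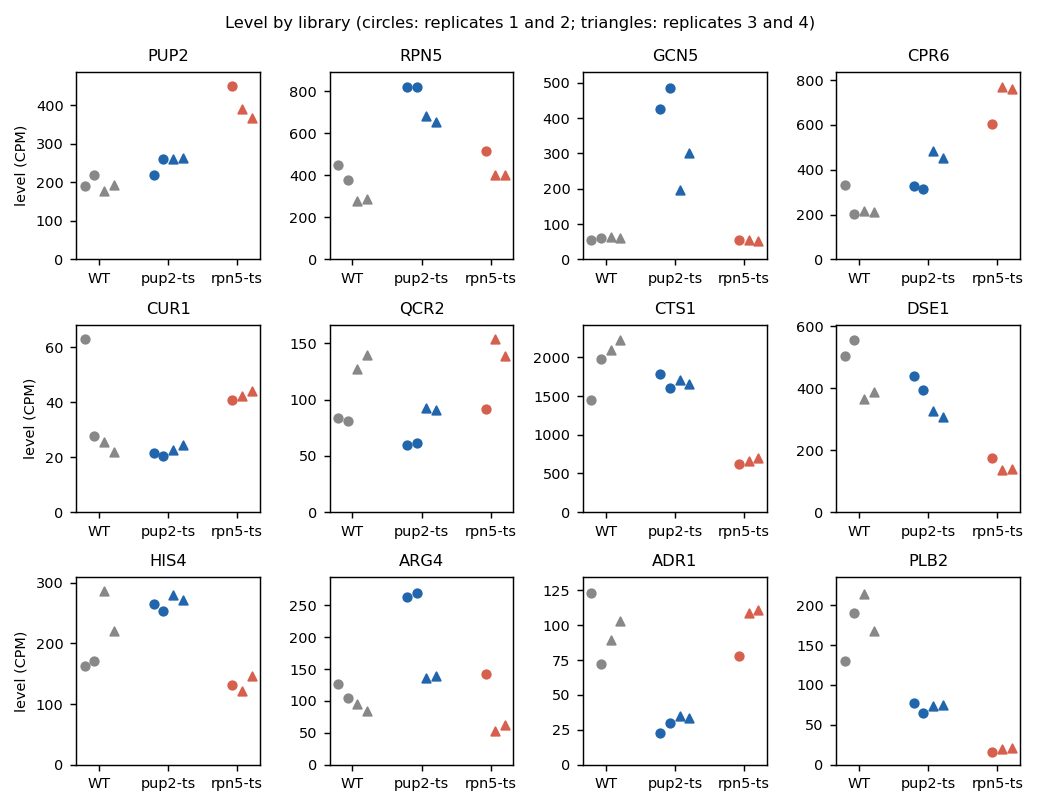
Level (CPM, linear axis from 0) of 12 genes in each WT (grey), pup2-ts (blue) and rpn5-ts (red) library; circles are replicates 1 and 2 and triangles replicates 3 and 4. CTS1, DSE1 and PLB2 are low in all 3 rpn5-ts libraries, GCN5 is high only in the 4 pup2-ts libraries, and ADR1 is low only in pup2-ts.

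Many genes of G2/M and of G1/S were higher in the lid mutant. Of 15 genes that peak in G2 and M phase 11 were called higher and 0 lower, with a median of 0.33. Of 21 genes that peak at the G1 to S transition 12 were called higher and 0 lower, with a median of 0.21. Over all genes 15.4% were called higher and 17.1% lower. SWI5, which encodes a transcription factor of late mitosis, measured 67.7, 63.3, 53.0 and 50.7 CPM in pup2-ts and 84.4, 77.3 and 84.6 CPM in rpn5-ts. It was higher in every rpn5-ts library, by 0.53 (SE 0.070, adjusted p = 7.3e-04). CHS2, the chitin synthase of the primary septum, differed by 0.61 (SE 0.060, adjusted p = 1.6e-04), and the S-phase cyclin CLB5 by 0.46 (SE 0.058, adjusted p = 5.8e-04). Against WT the G2/M median was 0.14 in rpn5-ts and -0.19 in pup2-ts, and the G1/S median -0.14 and -0.38. Of 10 histone genes 3 were called lower and 0 higher, HTA1 most at -0.47 (SE 0.068, adjusted p = 0.0012). So short a list holds few calls at the shares of all genes, and 1 histone gene was called higher with upper-quartile scaling. In RNA from a whole culture a larger share of cells in a phase and more RNA per cell cannot be told apart. With the library labelled rpn5-ts replicate 1 added 2 G2/M and 5 G1/S genes were called, with the WT libraries in the model 10 and 3, and without the form factor 0 and 0.

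Arginine and histidine synthesis were lower in the lid mutant. Gcn4 induces these pathways when amino acids are scarce. Of 12 arginine genes 8 were called lower and 2 higher, with a median of -0.53. Of 6 histidine genes 4 were called lower and 0 higher, with a median of -0.33. Over all genes 17.1% were called lower and 15.4% higher. ARG4, argininosuccinate lyase, measured 263, 269, 136 and 139 CPM in pup2-ts and 142, 52.7 and 61.6 CPM in rpn5-ts. Within each form of the name it was far lower in rpn5-ts, with a difference of -1.12 (SE 0.083, adjusted p = 4.4e-05). HIS4, whose promoter is shown above, measured 264, 254, 280 and 271 CPM in pup2-ts and 131, 122 and 147 CPM in rpn5-ts. The groups did not overlap, with a difference of -1.01 (SE 0.067, adjusted p = 1.9e-05).

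ARG1, argininosuccinate synthase, had the largest difference of the list but uneven rpn5-ts values. It measured 383, 396, 295 and 286 CPM in pup2-ts and 261, 50.3 and 97.2 CPM in rpn5-ts, a difference of -1.38 (SE 0.37, adjusted p = 0.037), and it was no longer called with the replicate block or without pup2-ts replicate 1, 3 or 4 or rpn5-ts replicate 4. Against WT the arginine median was -0.044 in rpn5-ts and 0.59 in pup2-ts, and the histidine median -0.50 and -0.12. CAN1, the arginine permease replaced in both mutants, was at 9.78 to 15.1 CPM in pup2-ts and 13.2 to 16.7 CPM in rpn5-ts, with no called difference (0.20, adjusted p = 0.38). With the library labelled rpn5-ts replicate 1 added 1 arginine gene and 0 histidine genes were called, and ARG4 (-0.58) and HIS4 (-0.44) were not among them.

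Other biosynthetic pathways held differences in both directions. Of 15 purine genes 8 were called lower and 2 higher, against 17.1% and 15.4% of all genes. ADE17, of the last steps of purine synthesis, measured 359, 305, 1008 and 972 CPM in pup2-ts and 138, 381 and 626 CPM in rpn5-ts. Its rpn5-ts values were uneven, and the difference of -1.09 (SE 0.17, adjusted p = 0.0042) was not called in replicates 3 and 4 alone. IMD2, the guanine-nucleotide enzyme IMP dehydrogenase, went the other way, at 1.12 (SE 0.13, adjusted p = 0.0010). Without pup2-ts replicate 3 the list had 6 called genes, as with the replicate block, and without rpn5-ts replicate 3 it had 5. Of 39 sulfur amino acid genes 13 were called lower and 2 higher, with a median of -0.10, MET17 not being counted in that list. The S-adenosylmethionine permease SAM3 was higher, at 0.70 (SE 0.089, adjusted p = 7.0e-04), and HOM2, of homoserine synthesis, was lower, at -0.54 (SE 0.055, adjusted p = 2.2e-04). Of 11 lysine genes 3 were called lower and 1 higher, of 12 branched-chain genes 4 and 1, and of 12 pyrimidine genes 2 and 1, with medians from -0.15 to -0.069. The pyrimidine shares were no larger than those of all genes, and the lysine list differed from them by few genes. With the replicate block 2 lysine genes and 3 branched-chain genes were called.

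Genes for vitamin B6 and thiamine were mostly higher in the lid mutant. Of 15 such genes 9 were called higher and 0 lower, against 15.4% and 17.1% of all genes, with a median of 0.57. THI7, the thiamine transporter, measured 73.7, 78.2, 46.4 and 46.8 CPM in pup2-ts and 191, 98.3 and 99.4 CPM in rpn5-ts. It was higher within each form of the name, with a difference of 1.19 (SE 0.060, adjusted p = 3.1e-06). SNZ3 (1.5, SE 0.14, adjusted p = 1.1e-04) and SNZ2 (1.12, SE 0.12, adjusted p = 2.6e-04), of vitamin B6 synthesis, share near-identical sequence, so their reads may be split between them. With the library labelled rpn5-ts replicate 1 added 0 members were called. Of 20 genes under nitrogen catabolite control 10 were called higher and 1 lower, PUT1 of proline use among them at 0.88 (SE 0.062, adjusted p = 2.5e-05). The total of 11 called was 7 without pup2-ts replicate 3, rpn5-ts replicate 3 or rpn5-ts replicate 4.

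Cell-surface genes differed singly and in both directions. SLT2, the MAP kinase of cell wall integrity, measured 259, 233, 285 and 282 CPM in pup2-ts and 158, 186 and 183 CPM in rpn5-ts. The groups did not overlap, with a difference of -0.63 (SE 0.052, adjusted p = 6.0e-05). GSC2, a glucan synthase induced by stress to the wall, was higher, at 131, 121, 150 and 138 CPM in pup2-ts and 200, 303 and 298 CPM in rpn5-ts. It differed by 0.90 (SE 0.081, adjusted p = 1.1e-04). Of the 20 genes of that list 6 were called lower and 4 higher, against 17.1% and 15.4% of all genes. Without rpn5-ts replicate 2 the counts were 11 and 5. Of 17 genes of the pheromone response 7 were called lower and 2 higher, with FIG2, a mating adhesin, higher at 0.65 (SE 0.066, adjusted p = 2.0e-04) and PRM5 lower at -0.60 (SE 0.051, adjusted p = 6.7e-05). The a-cell protease BAR1 was higher, at 0.64 (SE 0.079, adjusted p = 5.4e-04).

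Genes of the iron regulon went both ways. Of 27 genes 8 were called lower and 2 higher, against 17.1% and 15.4% of all genes, with a median of -0.10. The higher genes were the heme oxygenase HMX1 at 0.81 (adjusted p = 6.6e-04) and the iron permease FTR1 at 0.27 (SE 0.076, adjusted p = 0.024). Without the form factor, and with the WT libraries in the model, 2 were called lower and 0 higher. TIS11, which degrades mRNAs of iron-using proteins, measured 21.1, 20.5, 35.7 and 35.6 CPM in pup2-ts and 7.57, 17.3 and 19.4 CPM in rpn5-ts. It was lower within both forms, by -1.12 (SE 0.11, adjusted p = 1.2e-04). The cell wall mannoproteins FIT3 (-1.03, SE 0.11, adjusted p = 3.7e-04) and FIT2 (-0.75, SE 0.069, adjusted p = 1.1e-04), which bind iron-carrying siderophores, were lower too. Both mutants were far below WT for FIT3, by -3.86 (SE 0.26) in rpn5-ts and -2.85 (SE 0.22) in pup2-ts.

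The genes named for the size of their difference, 12 in each direction with at least 10 CPM in a group, held further functions. CDA1, a chitin deacetylase of the spore wall, measured 6.42, 5.94, 3.83 and 4.43 CPM in pup2-ts and 27.5, 14.3 and 13.8 CPM in rpn5-ts. All rpn5-ts libraries lay far above every pup2-ts library, with a difference of 1.95 (SE 0.11, adjusted p = 6.3e-06). SPS19, a peroxisomal reductase induced in sporulation, differed by 1.68 (SE 0.12, adjusted p = 3.1e-05), and SHC1, a sporulation activator of chitin synthase, by 1.51 (SE 0.091, adjusted p = 9.4e-06). BOP2 (1.65, SE 0.093), MPC3 (1.58, SE 0.17), the pyruvate carrier subunit, and INH1 (1.47, SE 0.10), the inhibitor of ATP synthase, were also among the 12 largest. YHL050C (1.60) and COS1 (1.62) lie near chromosome ends and have near-identical copies, so their levels are uncertain. OYE3 (1.60, SE 0.15) is an NADPH oxidoreductase, and ECM8 (1.47, SE 0.11) completes the set with SNZ3 and ADR1.

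Among the genes lowest in the lid mutant, ANB1, the translation factor eIF5A form made without oxygen, measured 51.5, 55.3, 72.1 and 77.8 CPM in pup2-ts and 11.1, 18.6 and 20.2 CPM in rpn5-ts. It differed by -2.06 (SE 0.082, adjusted p = 1.3e-06), with WT between them at 26.2 to 44.1 CPM. PLB2, a phospholipase B, measured 77, 64.3, 74.0 and 74.6 CPM in pup2-ts and 16.1, 19.8 and 21.3 CPM in rpn5-ts. Both mutants were below the WT range of 130 to 214 CPM, and the difference between them was -1.96 (SE 0.088, adjusted p = 2.3e-06). OSI1 (-1.44, SE 0.23), FRM2 (-1.12, SE 0.16), MCH5 (-1.28, SE 0.15), the riboflavin transporter, PRM7 (-1.21, SE 0.084) and the cell wall protein TIP1 (-1.26, SE 0.29) complete the 12 lowest with GCN5, ARG1, CTS1, DSE1 and TIS11. Among other settings, TIP1 was not called with the replicate block, with all annotated features, or without pup2-ts replicate 3, pup2-ts replicate 4 or rpn5-ts replicate 4. COS1 was not called with the block or without pup2-ts replicate 3 or 4.

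Some differences depended on the form of the name. The difference between the mutants changed with it for 475 genes (8.56%) in an interaction test with adjusted p under 0.05. ACO1, aconitase, measured 451, 422, 813 and 776 CPM in pup2-ts and 296, 1321 and 1329 CPM in rpn5-ts. It was lower in rpn5-ts in replicates 1 and 2 and higher in replicates 3 and 4, by -0.56 and 0.74 (interaction adjusted p = 2.6e-05), and was not called over both, at 0.26 (adjusted p = 0.51). STE2 differed by -1.07 in replicates 1 and 2 and by -0.011 in replicates 3 and 4 (interaction adjusted p = 4.8e-05). The values within replicates 1 and 2 rest on 1 rpn5-ts library. The count of genes whose difference depends on the form of the name was 792 without pup2-ts replicate 2, 272 and 261 without pup2-ts replicates 3 and 4, and 254 and 194 without rpn5-ts replicates 3 and 4. Of the 1805 called genes that reached a group mean of 1 CPM, 1802 had the same sign in both forms, which the test itself favours, and 70.2% of all 5523 genes at that level did.

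**Figure D5:**
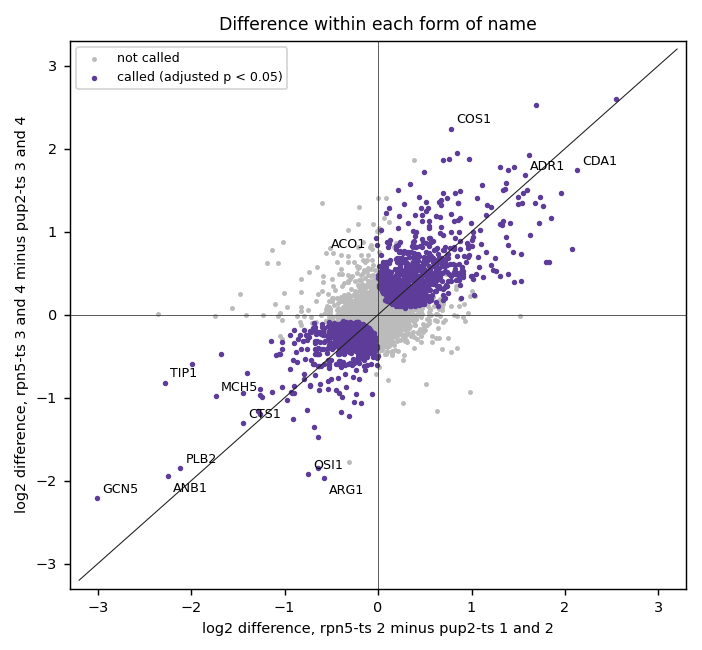
Log2 difference between rpn5-ts and pup2-ts in replicates 3 and 4 (vertical axis) against that in replicates 1 and 2 (horizontal axis) for the genes with a group mean of at least 1 CPM except MET17; purple points were called over both forms. GCN5, ANB1 and PLB2 lie far from 0 in both forms, TIP1 at -2.28 and -0.82 is lower mainly in replicates 1 and 2, and ACO1 changes sign.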

How the data were processed

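The deposited table holds whole-number read counts per feature, which the authors made with STAR 2.5.2b and featureCounts of Subread 1.5.1 on sacCer3, per the submitters' processing notes. The handling of reads that map to several places is not given in the sources used here. RNA was extracted with hot acid phenol, DNAse treated and made into polyadenylated-RNA libraries, per the labels' protocols. Of 12768 features, 5585 were protein-coding rows, which held 86.4% of counts, and 5551 passed edgeR's expression filter. Of these rows 385 overlap another gene on the same strand.

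Counts were tested with edgeR 4.0.16 (R 4.3.3): TMM factors, a quasi-likelihood fit with the form of the name and the mutant as terms, Benjamini-Hochberg adjustment over all 5551 genes and a threshold of 0.05. A second test asked for differences beyond 1.5-fold, and an interaction term for dependence on the form of the name. Levels are CPM scaled by these factors. Differences from WT come from a fit of 11 libraries. On simulated counts for 5551 genes, 98% of genes changed by 1.5-fold were called, and 12 of 210 calls were false. Only 200 genes were changed there, 50 at each fold and none of very low level. The spread was taken from these data, and no difference depended on the form of the name. These rates therefore check the code and do not measure missed or false calls in the real libraries. Alternatives used DESeq2 1.42.0, limma 3.58.1 (voom), other scalings, filters, libraries and models.

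The rpn5-ts and pup2-ts libraries with the same number deviated together, with correlations of 0.85, 0.77 and 0.74, above the 0.1 set for treating them as pairs. Within one form of the name the pairing was not distinct, since crossed numbers gave 0.80 and 0.78. The members and the 49 gene lists were chosen with earlier results of these data known. Named genes were 12 per direction by size, with at least 10 CPM in a group and no overlap within a form, plus 4 per list with the lowest adjusted p, and fixed genes. Genes beyond that rule, such as MATalpha markers, HMX1, FTR1 and ACO1, were chosen after their values were seen. Results that need items withheld for evaluation are not reported here.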

Additional observations from a re-analysis of the deposited data

Results flagged for a closer look

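In the 4 pup2-ts libraries a few of the 260 named genes had a library far from the others, which chance gives in about 1 of 20 groups. The lowest library was 220 CPM for PUP2 and 1.07 CPM for PAU5. The highest library was at 232 CPM for PDR16, 50.8 CPM for FIT2, 64.4 CPM for SAM3, 298 CPM for PHO8 and 16.8 CPM for GLG2.

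For 5 of the genes named by size, 12 in each direction, the difference between the mutants changed with the form of the name, by edgeR's interaction test. It did for 8.56% of all genes tested. The log2 difference in replicates 3 and 4 minus that in replicates 1 and 2 was 1.46 for COS1 (adjusted p = 4.0e-05), -1.17 for OSI1 (adjusted p = 0.0017), 0.75 for MCH5 (adjusted p = 0.0027), 1.47 for TIP1 (adjusted p = 1.3e-04) and -0.84 for FRM2 (adjusted p = 0.014). In replicates 1 and 2 the differences were 0.78, -0.75, -1.74, -2.28 and -0.64, and rested on 1 rpn5-ts library.

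The library labelled rpn5-ts replicate 1, outside the comparison, held LYS2 at 213 CPM, above the WT maximum of 207 CPM, and MET17 at 249 CPM, against a WT maximum of 0.0931 CPM. LYS2 is labelled as deleted in that strain and MET17 in all strains.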

How the results depend on the processing

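The replicate block is the fit with the shared replicate number as a term. Against 1807 genes called, 857 higher and 950 lower, 64 beyond 1.5-fold, 7 core-particle and 15 regulatory-particle genes, the following counts moved by over 1.5 times, and the cause was not tested. The replicate block gave 1099 genes, 525 of them lower, with 4 core-particle and 9 regulatory-particle genes. Without the form factor there were 47 genes (33 higher, 14 lower), 9 beyond 1.5-fold, and 0 and 0 proteasome genes. With the WT libraries in the same model there were 627 (347 higher, 280 lower), 25 beyond 1.5-fold, and 3 and 8 proteasome genes, and with the replicate block as well 371 (223 and 148), 14, and 2 and 2. With the library labelled rpn5-ts replicate 1 added there were 530 (274 and 256), 1 beyond 1.5-fold, and 1 and 4. Upper-quartile scaling gave 540 lower genes, and 3 and 9 proteasome genes. With all annotated features the genes called higher in rpn5-ts were 545, the genes called lower in rpn5-ts 1468, and there were 13 core-particle genes. Replicates 3 and 4 alone gave 124 beyond 1.5-fold and 13 core-particle genes, and replicates 1 and 2 alone 574 lower genes, 105 beyond 1.5-fold, and 1 and 2 proteasome genes. With limma-voom 40 genes were beyond 1.5-fold.

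Leaving out each library in turn gave 1045 to 2000 genes, 513 to 924 genes called higher in rpn5-ts, 532 to 1076 genes called lower in rpn5-ts, 41 to 108 beyond 1.5-fold, 2 to 13 core-particle and 7 to 18 regulatory-particle genes, and 194 to 792 genes whose difference depended on the form of the name. Reversed values were 0.18 for LYS1 and 0.036 for LYS4 with the library labelled rpn5-ts replicate 1 added, 0.0063 for ADH1 without the form factor and -0.52 for ACO1 in replicates 1 and 2 alone. Of 205 named genes called, 204 kept direction and call with RLE factors, 201 with DESeq2, 166 with the replicate block, 113 with the WT libraries in the model, 61 with rpn5-ts replicate 1 added and 25 without the form factor.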

Other observations

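Further lists went both ways, and their counts stand beside 15.4% of all genes called higher and 17.1% called lower. ZPS1, a zinc-responsive cell wall protein, was higher in rpn5-ts, at 16.2, 14.3, 8.04 and 8.81 CPM in pup2-ts and 31.9, 24.5 and 20.2 CPM in rpn5-ts (log2 difference 1.26, SE 0.11, adjusted p = 7.7e-05). The zinc transporter ZRT2 was lower, by -0.43 (SE 0.059), and of 11 zinc genes 1 was called higher and 2 lower. Of 11 drug-transport genes 5 were called higher and 5 lower, with the pumps PDR15 at 0.64 (SE 0.058, adjusted p = 1.0e-04) and PDR5 at -0.42 (SE 0.079, adjusted p = 0.0042). Of 20 genes of the oxidative stress response of Yap1 4 were called higher and 6 lower, and 5 in all without rpn5-ts replicate 3. ATR1, an efflux pump of that list, measured 190, 195, 127 and 126 CPM in pup2-ts and 103, 60.7 and 78 CPM in rpn5-ts, a difference of -0.88 (SE 0.077, adjusted p = 8.2e-05).

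Of 19 autophagy genes 7 were called higher and 2 lower, with ATG7 at 0.42 (SE 0.081, adjusted p = 0.0047) and ATG41 at -0.53 (SE 0.091, adjusted p = 0.0026). Of 15 DNA damage genes 1 was called higher and 4 lower, and 11 in all without rpn5-ts replicate 2. Of 23 ergosterol genes 5 were called higher and 2 lower, which became 15 in all without rpn5-ts replicate 2, 2 without pup2-ts replicate 3, 3 without rpn5-ts replicate 3, 4 without pup2-ts replicate 4 and 2 with the replicate block. Of 16 phosphate genes 1 was called higher and 2 lower, with the transporter PHO84 at -0.57 (SE 0.10, adjusted p = 0.0026). Of 13 anaerobic cell wall genes 3 were called higher and 1 lower, and of 9 genes of the early cell cycle box 1 was called higher and 0 lower.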
